A study of Marchantia polymorpha with 12 samples.

Results

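The comparison described here is that of 3 libraries labelled Mpmri-1 with 3 libraries of Tak-2, all from female plants of the liverwort Marchantia polymorpha. The 6 libraries were chosen by their labels out of 12 in the series. The other 6 libraries come from males, 3 of the line Mpfer-1 and 3 of the wild type Tak-1, and they enter as a second comparison where a difference between the lines was tested. Per the labels, Mpmri-1 is a line with a knockdown of MpMRI, Mpfer-1 a line with a knockdown of MpFER, and Tak-2 and Tak-1 carry no mutation. All plants were grown from gemmae for 3 weeks on cellophane over agar, with no treatment named. RNA was taken from whole thalli with their rhizoids, so fewer cells of a type and less RNA per cell cannot be told apart. Each mutant is a single line, and the labels do not say how either was made or whether the replicates A, B and C were separate cultures. The p-values below therefore measure the spread between these samples.

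FERONIA-type receptor kinases sit in the plasma membrane and monitor the cell wall. In flowering plants they bind RALF peptides together with LORELEI-type membrane-anchored proteins, and MARIS, a cytoplasmic kinase, acts downstream. MpFER and MpMRI are the liverwort members of these families, and the study describes both lines as having short rhizoids that burst. Rhizoids are the single-celled filaments that anchor the thallus and elongate at the tip, like the root hairs of flowering plants.

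The libraries labelled Mpmri-1 held 26728647, 33798041 and 32576655 counts (replicates A, B and C), and the Tak-2 libraries held 25548033, 28509119 and 30205347. Of 18336 genes, 14044 had enough counts to be tested. Levels are given as CPM, normalized counts on a common scale of library size, which compare 1 gene between libraries and not genes with each other. A gene is called when its Benjamini-Hochberg adjusted p from edgeR's quasi-likelihood test, over all genes tested, is below 0.05. Many genes belong to families with near-identical copies, and reads that the counting could split between such copies make the level of a single member uncertain.

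MpMRI itself was higher in the libraries labelled as its knockdown. In replicates A, B and C of the libraries labelled Mpmri-1 its level was 698, 649 and 764 CPM, against 264, 269 and 267 in Tak-2. The groups did not overlap, and the log2 fold change was 1.40 (SE 0.078, adjusted p = 4.41e-08, edgeR). Gene-level counts do not show which part of the transcript the reads came from, and that was not tested. Since the targeted gene goes against the label, every direction below is one of libraries so labelled, and not one of plants shown here to have less MpMRI RNA. Of the 8 nearest tested genes in the order of the identifiers, 6 were called, against 64.1% of all genes tested. These neighbours, 4 on either side, were named after their values were seen. The largest difference among them was that of Mp7g17640 (log2 fold change 2.68, SE 0.28, adjusted p = 6.87e-06, edgeR). Those next to MpMRI were Mp7g17550, at 2.81, 1.75 and 1.09 CPM in libraries labelled Mpmri-1 against 1.08, 0.991 and 0.782 CPM in Tak-2 (log2 fold change 0.97, SE 0.34, adjusted p = 0.0248), and Mp7g17580, at 110, 119 and 81 CPM against 138, 140 and 152 in Tak-2 (log2 fold change -0.47, SE 0.14, adjusted p = 0.0114).

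The other genes of cell wall sensing differed by less than MpMRI, and 3 of the other 6 were called, against 64.1% of all genes tested. MpFER, listed under the symbol MpFERONIA/MpTHESEUS, had 214, 179 and 193 CPM in libraries labelled Mpmri-1 and 182, 181 and 188 CPM in Tak-2. The groups overlapped, and the log2 fold change of 0.09 (SE 0.08) did not pass the test (adjusted p = 0.339, edgeR) and was -0.052 with totals in place of TMM. Of the peptides, MpRALF3 fell, with 5.95, 4.68 and 4.48 CPM against 9.17, 7.3 and 9.66 in Tak-2 (log2 fold change -0.79, SE 0.17, adjusted p = 0.00141). MpRALF2 had a log2 fold change of -0.16 (SE 0.098, adjusted p = 0.175, edgeR). MpRALF1 was called higher with overlapping groups, at 152, 101 and 120 CPM in libraries labelled Mpmri-1 and 104, 97.5 and 98.4 CPM in Tak-2 (log2 fold change 0.31, SE 0.12, adjusted p = 0.0314). That call was lost without replicate A of Mpmri-1 (adjusted p = 0.128) and without replicate A, B or C of Tak-2 (adjusted p = 0.0535, 0.088 and 0.0825), with the female libraries alone (0.0943) and with totals (0.166), where the log2 fold change was 0.17, and over all 13 alternatives the adjusted p lay between 0.00176 and 0.166. The co-receptor MpLRE2 fell to 19.7, 17 and 15.8 CPM, against 27.6, 27.6 and 28.5 in Tak-2 (log2 fold change -0.68, SE 0.089, adjusted p = 4.05e-05). MpLRE1 stood at 123, 119 and 55.2 CPM, against 71.1, 77.4 and 54.8 in Tak-2, and did not pass the test (log2 fold change 0.55, SE 0.24, adjusted p = 0.0663, edgeR). Without replicate C of Mpmri-1, which lies apart from the other 2, its log2 fold change was 0.83, and DESeq2 with 3 replicates also called it higher (adjusted p = 0.000186 and 0.0382, and 0.000186 to 0.246 over the 13 alternatives).

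**Figure D1:**
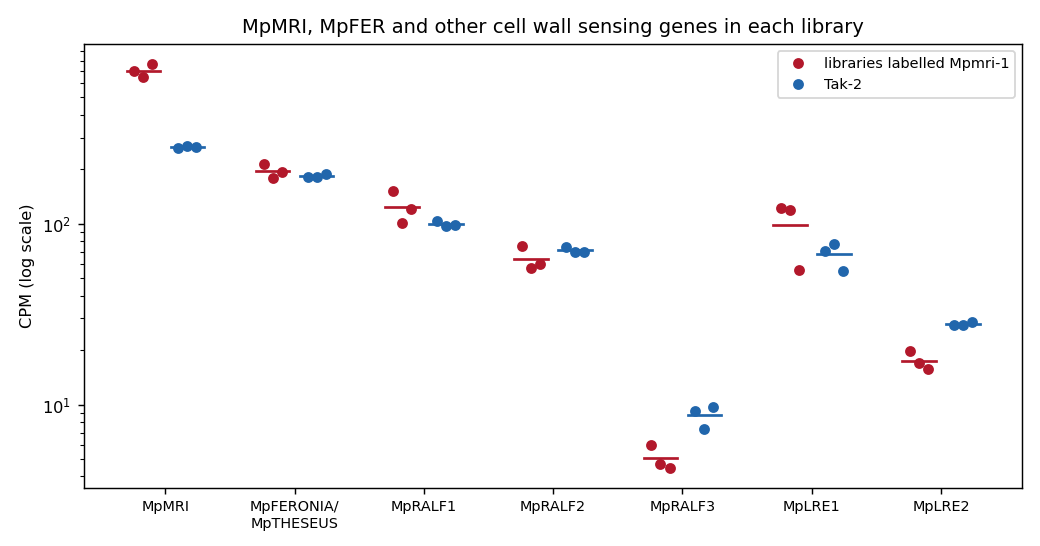
CPM on a log scale of MpMRI, MpFER (MpFERONIA/MpTHESEUS), 3 RALF peptide genes and 2 LORELEI-like genes in each library. Points are libraries and bars are group means, with the 3 libraries labelled Mpmri-1 left of the 3 Tak-2 libraries. MpMRI lies at 649 to 764 CPM in libraries labelled Mpmri-1 and at 264 to 269 CPM in Tak-2.

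None of 6 genes of rhizoid formation was called higher and 1 was called lower, against 33% and 31.1% of all genes. Without replicate C of Mpmri-1, 1 was higher and 2 were lower. MpROP, the GTPase that marks the growing site in tip-growing cells, had 171, 158 and 175 CPM in libraries labelled Mpmri-1 and 178, 182 and 166 CPM in Tak-2 (log2 fold change -0.063, SE 0.074, adjusted p = 0.473). Its exchange factor MpKAR had a log2 fold change of -0.096 (SE 0.13, adjusted p = 0.54). MpREN, a regulator that turns ROP off, had 67.8, 76.1 and 89.9 CPM against 90, 93 and 93.2 in Tak-2 (log2 fold change -0.24, SE 0.10, adjusted p = 0.0567). It was called lower by DESeq2 (adjusted p = 0.0411), with totals (0.0385), by limma voom (0.0498) and without replicate C of Mpmri-1 (0.00419, log2 fold change -0.36), and the adjusted p reached 0.199 over the 13 alternatives. MpBHLH14, also named MpRSL1, is the transcription factor that starts rhizoid outgrowth, and its log2 fold change was 0.23 (SE 0.13, adjusted p = 0.134), or 0.32 without replicate C of Mpmri-1 (adjusted p = 0.046). MpSPIRRIG had a log2 fold change of 0.14 (SE 0.14, adjusted p = 0.386). The gene called lower was MpFRH1, which encodes a microRNA that represses MpRSL1, at 0.0469, 0.101 and 0.0989 CPM of its host transcript against 0.708, 0.44 and 0.374 CPM in Tak-2 (log2 fold change -2.49, SE 0.61, adjusted p = 0.00371, edgeR).

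Across the genome, 9004 genes were called, which is 64.1% of those tested. Of these, 4641 genes (33%) were higher in libraries labelled Mpmri-1 and 4363 (31.1%) were lower. Every count of a gene group below is to be read beside these shares. In 8652 of the called genes (96.1%) the groups did not overlap. A call from the same libraries makes this likely, so it is no separate support, and the share over all genes was not counted. With totals in place of TMM normalization the split was 3782 higher and 5181 lower, and the median over all genes moved to a log2 fold change of -0.13, against 0.0015 with TMM. Large changes were mostly rises. At 2 or more on the log2 scale, 1228 genes were higher and 423 lower, and at 3 or more, 811 were higher and 148 lower. The 8 autosomes had 30.1% to 34.7% of their genes higher and 29.6% to 33.2% lower.

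A single gene of unknown name, Mp7g02900, reached 36669, 42126 and 24673 CPM in libraries labelled Mpmri-1, against 80.1, 250 and 123 CPM in Tak-2 (log2 fold change 7.84, SE 0.59, adjusted p = 4.13e-07, edgeR). It took 2.93%, 3.7% and 2.3% of all counts in libraries labelled Mpmri-1, more than any other gene. The male wild type also had more of it than Tak-2, with a mean of 1183 CPM in Tak-1. The next largest rises among genes at 5 CPM or more in Tak-2 were those of MpPOD89, a class III peroxidase, and MpGH19.13, a chitinase-type glycoside hydrolase. MpPOD89 had 1568, 1132 and 1717 CPM against 5.54, 12.3 and 6.19 in Tak-2 (log2 fold change 7.52, SE 0.47). MpGH19.13 had 665, 673 and 709 CPM against 3.5, 5.58 and 8.26 in Tak-2 (log2 fold change 6.87, SE 0.44). The dirigent protein gene MpDIR46 followed, and then Mp8g08950 and Mp8g08990, which have no symbol and log2 fold changes of 6.67 and 6.10. Among genes with a symbol, MpPR4 (log2 fold change 5.96, SE 0.51), MpAAA (5.54, SE 0.23) and the superoxide dismutase gene MpSOD4 (4.93, SE 0.27) completed the 6 largest rises.

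The largest falls among genes with at least 1 CPM left in libraries labelled Mpmri-1 were in genes of moderate level. Mp8g00430 fell to 0.563, 1.08 and 1.38 CPM, against 54.5, 40.5 and 42 in Tak-2 (log2 fold change -5.45, SE 0.25, adjusted p = 1.08e-08, edgeR). Mp4g02020, Mp6g11740, Mp4g19940 and Mp5g04600, also without a symbol, had log2 fold changes of -4.70, -4.60, -4.35 and -4.12, the first being -5.36 without replicate C of Mpmri-1. Mp5g04600 was uneven among the replicates, at 21.3, 1.58 and 22.3 CPM, against 315, 228 and 239 in Tak-2. Among genes with a symbol the largest falls were those of the polyphenol oxidase MpPPO8 (log2 fold change -4.04, SE 0.20), the methyltransferase MpOMT3 (-3.28, SE 0.20), the monooxygenase MpCYP716 (-3.20, SE 0.12), the peroxidases MpPOD80 (-3.15, SE 0.25) and MpPOD52 (-3.09, SE 0.30), and the wall-loosening protein MpExpansin32 (-3.00, SE 0.14).

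Of the 5 genes with the highest level in Tak-2, 4 were called lower, against 31.1% of all genes tested. They were chosen by the same Tak-2 libraries, which favours a lower level in the other group. Mp3g03990 had 7334, 5744 and 6074 CPM in libraries labelled Mpmri-1 against 10738, 10145 and 10393 CPM in Tak-2 (log2 fold change -0.71, SE 0.14). Mp4g06050 and Mp8g15740 had log2 fold changes of -0.88 (SE 0.18) and -1.44 (SE 0.14). Mp4g10850, the highest, had 16597, 12467 and 12611 CPM against 17992, 16636 and 16649 in Tak-2 and did not pass the test (log2 fold change -0.30, SE 0.15, adjusted p = 0.105, edgeR). Without replicate A of Mpmri-1 its log2 fold change was -0.45 and it was called lower, as it was by DESeq2 and with totals (adjusted p = 0.0112, 0.0349 and 0.00129, and 0.00129 to 0.25 over the 13 alternatives). MpVg01240 has an identifier of the male V chromosome, which females do not carry, so the origin of its reads is uncertain. It had 1339, 406 and 394 CPM in libraries labelled Mpmri-1, against 10328, 15598 and 6702 CPM in Tak-2 (log2 fold change -3.93, SE 0.79, adjusted p = 0.000957), and a log2 fold change of -4.77 without replicate A of Mpmri-1.

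Secreted defence proteins and enzymes of phenolic synthesis were mostly higher, in number and in summed level. Pathogenesis-related proteins are small secreted proteins that plants accumulate on infection or wounding. Of 49 genes so named, 34 were tested, and of these 30 were higher and 1 lower, against 33% and 31.1% of all genes. Their summed level was 3192, 3362 and 1905 CPM in libraries labelled Mpmri-1, against 75.5, 85.2 and 77.1 CPM in Tak-2, a ratio of the means of 35.6. The median log2 fold change was 5.67, and 4.71 with the 11 genes that had 0 to 3 counts over Tak-2 set to their counting ratio or lower bound. A gene with almost no counts in Tak-2 passes the filter only through counts in another group, which favours rises. Without the filter, 32 of 48 were higher and 2 lower, with a median of 4.23, against 4671 higher and 4443 lower of 17378 genes. MpPR4 had 302, 503 and 203 CPM against 4.79, 5.98 and 5.41 in Tak-2 (log2 fold change 5.96, SE 0.51, adjusted p = 1.13e-06). The germin-like genes MpPR15j and MpPR15l had 50 ± 21.3 and 39.6 ± 12.3 CPM (SD, n = 3), with 2 and 3 counts in all over Tak-2, which gives ratios of 1957 (exact 95% interval 541 to 16162, counting error only) and 1034 (354 to 5019). With 1 library left out these ratios ran from 1243 to 2749 and from 685 to 2180.

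The phenylpropanoid pathway turns phenylalanine into phenolic compounds. Phenylalanine ammonia-lyase (PAL) and cinnamate 4-hydroxylase (C4H) open it, and chalcone synthase and its polyketide synthase relatives (PKS/CHS) lead to flavonoids. Of 46 genes of these families, 34 were higher and 5 lower, with a median log2 fold change of 2.20. The summed level was 7590, 6753 and 7356 CPM in libraries labelled Mpmri-1 against 1637, 1540 and 1693 CPM in Tak-2, a ratio of 4.46 with little spread among replicates. MpPAL2 had 35.9, 35.4 and 45.3 CPM against 0.208, 0.0367 and 0 in Tak-2 (log2 fold change 8.95, SE 0.63, adjusted p = 2.69e-07, edgeR, with 10.80 without replicate A and 8.32 without replicate C of Tak-2). MpPAL3 had 68.4, 64.5 and 59.4 CPM against 0.333, 1.25 and 0.34 in Tak-2 (log2 fold change 6.63, SE 0.35, or 7.55 without replicate B of Tak-2). Other members fell, with log2 fold changes of -1.91 for MpPAL9 (SE 0.16) and -1.15 for MpC4H3 (SE 0.20).

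Dirigent proteins guide the coupling of phenolic radicals. Of 50 tested, 39 were higher and 4 lower, with a median log2 fold change of 2.12 and summed levels of 6689, 7850 and 3988 CPM against 1349, 1269 and 1407 in Tak-2. MpDIR47 had 1069, 1503 and 400 CPM against 3.88, 3.6 and 2.65 in Tak-2 (log2 fold change 8.20, SE 0.53, adjusted p = 1.35e-07), and MpDIR48 had 799, 1192 and 295 CPM against 3.08, 3.23 and 2.41 in Tak-2 (8.03, SE 0.53). MpDIR10 went the other way, at 7.36, 6.37 and 10.4 CPM against 35.3, 28.5 and 40.6 in Tak-2 (log2 fold change -2.11, SE 0.20).

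Of 102 cytochrome P450 genes, haem monooxygenases of specialised metabolism, 62 were higher and 15 lower. Their summed level was 4394, 4345 and 4272 CPM against 2149, 1981 and 2180 in Tak-2. MpCYP829-like7 had 9.56, 7.28 and 17.3 CPM against 0.0833, 0.11 and 0.068 in Tak-2 (log2 fold change 6.97, SE 0.49). MpCYP704-like8 did the reverse, at 0.516, 0.101 and 0.198 CPM against 74.3, 73 and 75.3 in Tak-2 (log2 fold change -8.20, SE 0.33, adjusted p = 5.22e-09, edgeR, and -8.91 without replicate A of Mpmri-1). Terpene synthases counted 11 higher and 3 lower of 22, among them MpFTPSL8 at 236, 276 and 132 CPM against 1, 1.69 and 0.918 in Tak-2 (log2 fold change 7.48, SE 0.38). MpTPS6 had 106, 91.8 and 160 CPM and no count in any Tak-2 library, which makes it at least 3253-fold higher when 3 counts over the group are taken as the floor, or at least 2067-fold higher without replicate C of Tak-2. O-methyltransferases counted 7 higher and 4 lower of 12, led by MpOMT15 (log2 fold change 5.78, SE 0.27) and MpOMT14 (4.48, SE 0.21).

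Glutathione transferases detoxify reactive compounds, and more of them were higher (45.5%) than lower (21.2%). Of 33 glutathione transferases, 15 were higher and 7 lower, with summed levels of 6898, 5900 and 5219 CPM in libraries labelled Mpmri-1 against 2568, 2573 and 2520 CPM in Tak-2. Much of that sum was MpGST9, at 2444, 1920 and 1730 CPM against 172, 167 and 174 in Tak-2 (log2 fold change 3.57, SE 0.16, adjusted p = 7.57e-09, edgeR). MpGST28 rose by 4.92 on the log2 scale (SE 0.30), and MpGST16 and MpGST2 fell by 1.40 and 1.01. Of 20 genes of lipoxygenases and the jasmonate pathway, 8 were higher and 8 lower. MpLOX1 had 145, 112 and 171 CPM against 3.54, 3.85 and 3.43 in Tak-2 (log2 fold change 5.30, SE 0.30), and MpLOX3 had 0.797, 0.876 and 1.09 CPM against 9.75, 6.86 and 11.9 in Tak-2 (-3.35, SE 0.29).

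WRKY and AP2/ERF proteins are transcription factors, many of which act in defence and stress responses of flowering plants. Of 13 WRKY genes, 10 were higher and 2 lower, with a median log2 fold change of 1.22. MpWRKY3 had 18.2, 14.8 and 19.2 CPM against 0.208, 0.22 and 0.136 in Tak-2 (log2 fold change 6.51, SE 0.34), and MpWRKY14 had 124, 119 and 79.4 CPM against 19.1, 18.4 and 25 in Tak-2 (2.36, SE 0.20). MpWRKY9 fell by 0.90 (SE 0.12) and MpWRKY5 by 0.61 (SE 0.097) on the log2 scale. Of 15 AP2/ERF genes, 11 were higher and 1 lower, with MpERF15 at 34.7, 32.8 and 41.5 CPM against 7.33, 7.16 and 7.48 in Tak-2 (log2 fold change 2.31, SE 0.23). MYB genes counted 8 higher and 3 lower of 19, bZIP genes 3 and 4 of 15, and bHLH genes 8 and 13 of 37. Over all genes, 33% were higher and 31.1% lower. Intracellular immune receptors of the NBS-LRR type counted 12 higher and 6 lower of 21, with MpNBS-LRR11 at 31.2, 41 and 44.7 CPM against 0.208, 0.551 and 0.272 in Tak-2 (log2 fold change 6.80, SE 0.46).

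Class III peroxidases, secreted enzymes that cross-link or loosen walls, moved both ways. Of 129 tested, 64 were lower and 32 higher, and the median log2 fold change was -0.90. Their summed level was nevertheless higher, at 6611, 6255 and 5710 CPM in libraries labelled Mpmri-1 against 1919, 1707 and 2092 CPM in Tak-2. A few members carried that sum. MpPOD164, named here after its values were seen, had 2875 CPM on average against 264 CPM in Tak-2 (log2 fold change 3.45, adjusted p = 1.16e-07, edgeR). MpPOD88 had 420, 398 and 424 CPM against 4.5, 4.59 and 4.62 in Tak-2 (log2 fold change 6.50, SE 0.28). MpPOD80 had 2.81, 2.33 and 4.58 CPM against 31.7, 20.3 and 35 in Tak-2.

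Polyphenol oxidases, copper enzymes that oxidise phenols, showed 26 of 40 genes lower and 10 higher, with a median log2 fold change of -1.67. MpPPO8 had 3.05, 2.53 and 3.56 CPM against 54.8, 52.8 and 42.9 in Tak-2 (log2 fold change -4.04, SE 0.20, adjusted p = 2.16e-08). MpPPO40 and MpPPO6 had log2 fold changes of -5.19 (SE 0.56, or -6.13 without replicate C of Mpmri-1) and -4.91 (SE 0.42). MpPPO52 rose to 168, 115 and 151 CPM against 0.125, 1.17 and 0.646 in Tak-2 (log2 fold change 7.75, SE 0.46), and MpPPO25 by 6.99 (SE 0.48) on the log2 scale. Without replicate B of Tak-2 these were 8.45 and 8.54.

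**Figure D2:**
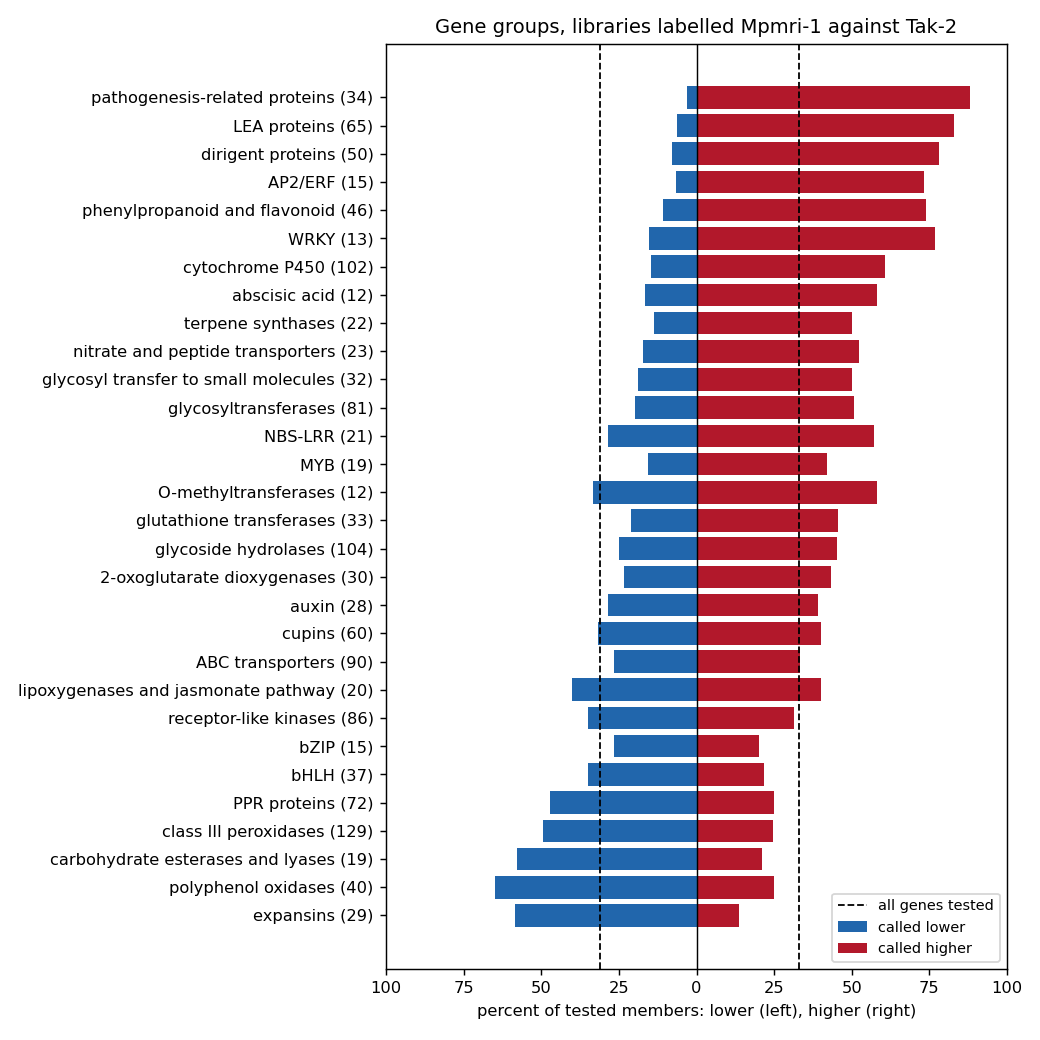
Percent of tested members of each gene group with at least 12 tested members that were called higher (right) and lower (left) in libraries labelled Mpmri-1 against Tak-2, with the number tested in brackets. Dashed lines mark the shares over all genes tested, 33% higher and 31.1% lower. Pathogenesis-related, LEA and dirigent proteins lie at the top, and polyphenol oxidases and expansins at the bottom.

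Expansins and aquaporins were more often lower than higher. Expansins loosen the wall during growth, and of 29 tested 17 were lower, 4 higher and 8 not called. Their summed level was 1348, 1112 and 1196 CPM in libraries labelled Mpmri-1 against 2631, 2486 and 2127 CPM in Tak-2. MpExpansin32 had 43.8, 50.3 and 61.1 CPM against 453, 411 and 375 in Tak-2, and MpExpansin34 had a log2 fold change of -2.52 (SE 0.23), while MpExpansin16 rose by 1.27 (SE 0.22). Of 19 carbohydrate esterases and lyases, which include enzymes acting on pectin, 11 were lower and 4 higher, with MpCE8.3 at 85.6, 62.5 and 80.2 CPM against 319, 311 and 347 in Tak-2 (log2 fold change -2.10, SE 0.11). Aquaporins counted 5 lower and 1 higher of 6, with summed levels of 4302, 3907 and 3677 CPM against 8018, 8238 and 7230 in Tak-2. The water channel MpTIP1 had 2010, 1707 and 1664 CPM against 4296, 4458 and 3771 in Tak-2 (log2 fold change -1.22, SE 0.11, adjusted p = 2.3e-06, edgeR), and MpNIP was the member that rose (2.22, SE 0.13).

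Other wall enzymes had no single direction, and the shares over all genes were 33% higher and 31.1% lower. Glycoside hydrolases counted 47 higher and 26 lower of 104. MpGH19.3 had 356, 602 and 234 CPM against 1.63, 1.58 and 2.82 in Tak-2 (log2 fold change 7.61, SE 0.56), and MpGH16.13 had 7.27, 4.58 and 7.91 CPM against 26.9, 19 and 32.9 in Tak-2 (-2.0, SE 0.23). Glycosyltransferases counted 41 higher and 16 lower of 81, led by MpGT37.4 (log2 fold change 4.48, SE 0.22). Of 10 cellulose synthase and related genes, 3 were higher and 4 lower, with MpCSLD9 at 877, 762 and 1079 CPM against 509, 496 and 508 in Tak-2 (0.84, SE 0.11) and MpCSLD4 at 5.81, 4.72 and 11.9 CPM against 26.6, 19.1 and 28.4 in Tak-2 (-1.71, SE 0.29).

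**Figure D3:**
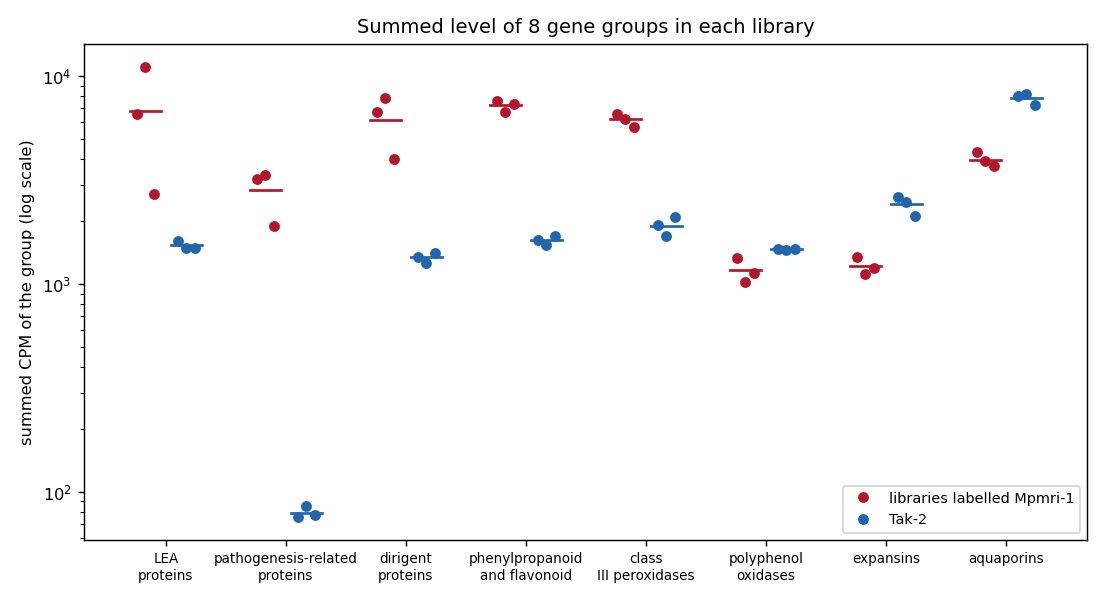
Summed CPM on a log scale of all matched members of 8 gene groups in each library. Points are libraries and bars are group means, with the 3 libraries labelled Mpmri-1 left of the 3 Tak-2 libraries. Pathogenesis-related proteins lie at 1905 to 3362 CPM against 75.5 to 85.2 CPM in Tak-2, and the LEA sum spreads from 2702 to 11130 CPM among the libraries labelled Mpmri-1.

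Late embryogenesis abundant (LEA) proteins protect cells that lose water, and in seed plants they accumulate in ripening seeds. Of 65 tested LEA genes, 54 were higher and 4 lower, with a median log2 fold change of 5.17, or 4.96 with 10 genes at their counting ratio or lower bound. The summed level was 6546, 11130 and 2702 CPM in libraries labelled Mpmri-1 against 1607, 1493 and 1498 CPM in Tak-2, so the 3 replicates lay above Tak-2 but far apart. MpLEA-like9 had 266, 503 and 42.1 CPM, with 3 counts in all over Tak-2, a ratio of 7228 (exact 95% interval 2473 to 35053), and of 3615 without replicate B of Mpmri-1. MpLEA-like28 had 153, 283 and 24.6 CPM against 0, 0.0734 and 0.068 in Tak-2 (log2 fold change 11.48, SE 1.19, adjusted p = 5.58e-06, edgeR, and 10.69 without replicate B of Mpmri-1). MpLEA-like33 fell to 141, 138 and 94.5 CPM against 378, 351 and 343 in Tak-2 (-1.52, SE 0.13), and MpLEA-like54 fell by 2.25 (SE 0.22).

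Abscisic acid is the hormone of water stress, and in Marchantia it induces LEA genes. Of 12 tested genes of its synthesis, breakdown and signalling, 7 were higher and 2 lower, against 33% and 31.1% of all genes. The median log2 fold change was 0.34. Without the filter on low counts, 8 of 17 were higher and 2 lower, with a median of 0.044. The summed level overlapped between the groups, at 1100, 1200 and 1123 CPM against 1124, 1088 and 1072 in Tak-2, a ratio of the means of 1.04. MpNCED, which makes the first committed step, had 2.86, 2.97 and 1.05 CPM against 0.5, 0.551 and 0.51 in Tak-2 (log2 fold change 2.12, SE 0.38, adjusted p = 0.000461, edgeR). MpCYP707A, which breaks the hormone down, had 5.16, 4.62 and 6.46 CPM against 0.75, 0.551 and 0.816 in Tak-2 (2.93, SE 0.27), and MpCYP707-like rose by 0.57 (SE 0.11). The synthesis gene MpABA1 fell to 221, 256 and 257 CPM against 377, 352 and 363 in Tak-2 (-0.57, SE 0.092), while MpABA4 (-0.19, SE 0.14, adjusted p = 0.244) and MpCYP707D1 (-0.041, SE 0.088, adjusted p = 0.703) did not pass the test.

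Among the transcription factors of the pathway, MpABI3A had 59.2, 82.8 and 68.4 CPM against 34.8, 36.1 and 32.6 in Tak-2 (log2 fold change 1.02, SE 0.14, adjusted p = 4.05e-05, edgeR). MpABI5B had 45.2, 67.9 and 49.7 CPM against 32.7, 35.2 and 33.2 in Tak-2 (0.69, SE 0.15). MpABI5A moved the other way, at 28.2, 27.4 and 35.5 CPM against 60.5, 61.6 and 57.7 in Tak-2 (-0.98, SE 0.089). The receptor gene MpPYL1 rose by 0.32 (SE 0.071) and the kinase gene MpSNRK2A by 0.36 (SE 0.074), and MpSNRK2B did not pass the test (0.052, SE 0.061, adjusted p = 0.467).

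Further gene groups are given by their counts, beside 33% of all genes higher and 31.1% lower. Receptor-like kinases (31.4% and 34.9%) and ABC transporters (33.3% and 26.7%) lay near these shares. Receptor-like kinases counted 27 higher and 30 lower of 86, with MpRLK-Pelle_L-LEC26 at 69.6, 61.6 and 73 CPM against 16.8, 16.3 and 18.6 in Tak-2 (log2 fold change 1.98, SE 0.13) and MpRLK-Pelle_LysM3 at 5.16, 4.85 and 5.73 CPM against 17.8, 16.2 and 15.9 in Tak-2 (-1.66, SE 0.17). ABC transporters counted 30 and 24 of 90, cupins 24 and 19 of 60, auxin genes 11 and 8 of 28, 2-oxoglutarate dioxygenases 13 and 7 of 30, and nitrate and peptide transporters 12 and 4 of 23. Glycosyltransferases acting on small molecules counted 16 higher and 6 lower of 32. The auxin exporter gene MpPIN3 had 141, 166 and 100 CPM against 8.75, 8.52 and 16.6 in Tak-2 (3.58, SE 0.26), and the auxin response gene MpSAUR3 had 81.6, 65.3 and 69.9 CPM against 164, 156 and 165 in Tak-2 (-1.16, SE 0.086). Of 72 pentatricopeptide repeat genes, whose products bind RNA in organelles, 34 were lower and 18 higher, mostly by small amounts, with a median log2 fold change of -0.16. Calcium sensor genes counted 1 higher and 4 lower of 5, and chaperone genes 3 higher and 1 lower of 6.

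Markers of other cell types and organs were counted against 33% of all genes higher and 31.1% lower. Of 4 oil body cell markers, 3 were higher and none lower, with a summed level of 98.4, 94.8 and 97.8 CPM in libraries labelled Mpmri-1 against 65.3, 64.4 and 51.6 CPM in Tak-2. Of 4 genes listed for gemma cups, 3 were higher and none lower, with sums of 131, 144 and 137 CPM against 107, 85.9 and 97.3 in Tak-2. Most of that sum came from MpMAX2 and MpSMXL, with means of 43 and 69.4 CPM in libraries labelled Mpmri-1, so it need not follow the amount of gemma cups. The count fell to 2 of 4 with totals, without replicate C of Mpmri-1 and without replicate B of Tak-2. Of 8 tested markers of sexual branches, 1 was higher and 2 lower, with sums of 103, 118 and 131 CPM against 183, 179 and 176 in Tak-2. A single member, MpRKD, carried most of that sum, at a mean of 94 CPM against 149 in Tak-2. How specific the listed genes are to each structure was not tested. Terpene synthases are among the genes used in oil body cells, and the part of these cells in the changes above was not tested.

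Part of the large rises lay side by side. Among genes tested, 41 runs of at least 4 neighbours were all called in the same direction by 2 or more on the log2 scale, a length and size set after the data were seen. Of these runs, 40 were higher in libraries labelled Mpmri-1, with 206 of the 1228 genes higher at that size, and 1 was lower. The longest held 11 genes on chromosome 4, from Mp4g14100 to Mp4g14220, all PAL or PKS/CHS genes, with log2 fold changes of 2.05 to 5.89. Its summed level was 2745, 2395 and 2864 CPM against 297, 249 and 326 in Tak-2. A run of 6 dirigent genes on chromosome 3, from Mp3g24140 to Mp3g24210, summed to 3515, 5106 and 1323 CPM against 23.8, 20.8 and 21 in Tak-2.

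Further runs also held members of 1 family side by side. On chromosome 6, 6 LEA genes from Mp6g02960 to Mp6g03010 summed to 136, 185 and 23.6 CPM against 1.29, 0.44 and 0.816 in Tak-2, and 8 LEA genes from Mp6g03050 to Mp6g03130 to 253, 481 and 56.1 CPM against 0.583, 0.844 and 0.544 CPM. The polyphenol oxidase family, mostly lower elsewhere, had members in a run of 5 higher genes on chromosome 2, from Mp2g05780 to Mp2g05850, with Mp2g05800, which has no symbol, MpPPO2, MpPPO3, MpPPO4 and MpAUS, named for aureusidin synthase, an enzyme of aurone pigments. That run summed to 311, 212 and 254 CPM against 2.63, 5.76 and 4.28 in Tak-2. The run that was lower had 6 genes on chromosome 6, from Mp6g11710 to Mp6g11780, with the terpene synthase gene MpMTPSL22 and the aquaporin gene MpTIP2 at its ends, and summed to 42.1, 31.5 and 47 CPM against 217, 177 and 259 in Tak-2. A sum over a run does not depend on how reads were split between the copies within it.

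The 3 libraries labelled Mpmri-1 differed more from each other than the Tak-2 libraries did. The median SD of log2(CPM + 1) over 3 libraries was 0.17 in the 9350 genes with a mean of at least 10 CPM in libraries labelled Mpmri-1, and 0.0642 in the 8967 such genes in Tak-2. Over the 8463 genes at that level in both, the SD was larger in libraries labelled Mpmri-1 in 7220. An SD of at least 1 was found in 160 genes of the libraries labelled Mpmri-1 and in 2 genes of Tak-2, and in 5 of Mpfer-1 and 7 of Tak-1. Spearman's rho between replicates was 0.976 to 0.989 in libraries labelled Mpmri-1 and 0.995 to 0.997 in Tak-2, each over genes within a pair of libraries, as a description.

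The 160 variable genes followed a common order. In 152 of them replicate B was the highest and replicate C the lowest. These 152 summed to 15867, 31997 and 4039 CPM in A, B and C of Mpmri-1, against 634, 611 and 590 CPM in Tak-2. The median ratio over these genes was 8.3 between replicates B and C and 4.28 between A and C. The 152 were chosen by their SD and by this order of the same libraries. The order of the sums and a large ratio therefore follow from the choice. The 160 were chosen with a floor of 10 CPM on the Mpmri-1 mean and none on the Tak-2 mean, and 97 of them had a Tak-2 mean below 1 CPM. LEA genes made up 29, out of 53 LEA genes at that level, dirigent genes 4 out of 28 and cupins 1 out of 16. No member of the pathogenesis-related (18 at that level), phenylpropanoid (36), P450 (56) or peroxidase (29) groups was among them. That depends on the cut at an SD of 1, as MpPR15j and MpPR4 had SDs of 0.73 and 0.653 and were also highest in B and lowest in C. Of the 160, 44 had a symbol, against 3095 of all 18336 genes.

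The 5 most variable genes have no symbol. Mp1g02420 had 56.5, 235 and 3.95 CPM in libraries labelled Mpmri-1 and no count in Tak-2, at least 2738-fold higher with 3 counts over the group as the floor, and at least 689-fold higher without replicate B of Mpmri-1. Mp6g20750, Mp6g20760 and Mp6g20770 are neighbours on chromosome 6 and had 10.9, 95.6 and 0.692 CPM, 10.4, 110 and 0.494 CPM, and 34.8, 204 and 1.55 CPM, with Tak-2 means of 0.0236, 0.0391 and 0.0645 CPM. Mp8g03450 had 39.6, 83.8 and 1.25 CPM, with 1 count in all over Tak-2. These 5 were called by edgeR (adjusted p = 0.000244 to 0.00214) and not by limma voom (adjusted p = 0.117 to 0.239). In Mpfer-1, 151 of the 160 variable genes were called higher than in Tak-1, against 29.1% of all genes tested and 2813 of the 4641 genes called higher in Mpmri-1.

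**Figure D4:**
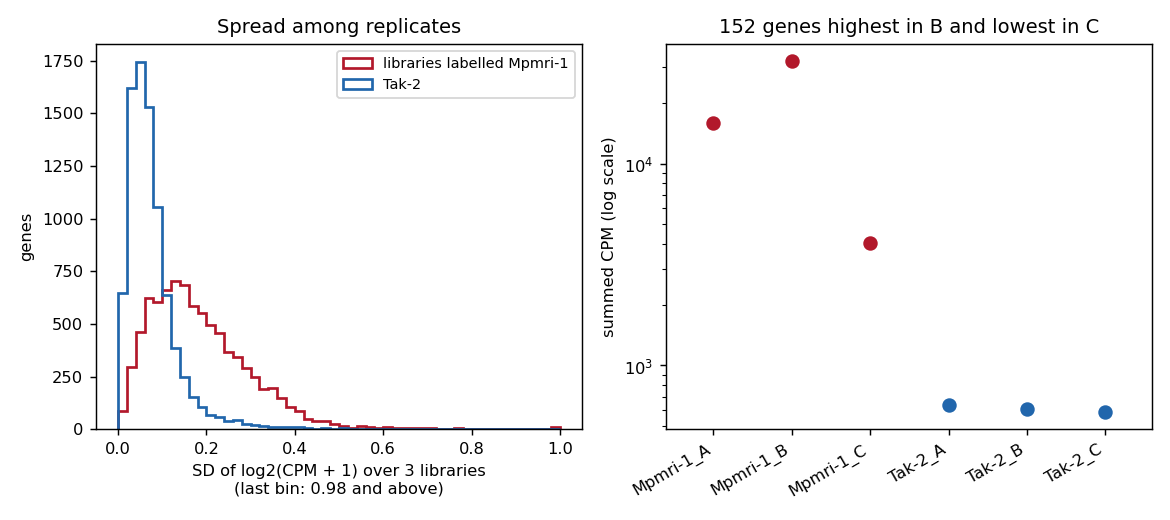
Left, number of genes by their SD of log2(CPM + 1) over 3 libraries, for genes with a mean of at least 10 CPM in both groups. Right, summed CPM on a log scale of the 152 variable genes that were highest in replicate B and lowest in replicate C of Mpmri-1, in each of the 6 libraries. The libraries labelled Mpmri-1 have the broader distribution, and their sums run from 4039 to 31997 CPM against 590 to 634 CPM in Tak-2.

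Mpmri-1 and Mpfer-1 are of opposite sex and were each compared with the wild type of their own sex. The difference between the effect of Mpmri-1 over Tak-2 and that of Mpfer-1 over Tak-1 was called for 5239 genes, or 37.3%. Sex, wild-type strain and mutant line cannot be told apart in that difference. Of 65 LEA genes, 4 were called higher and 6 lower in the difference (15.4%). For LEA genes with almost no counts in either wild type this difference was poorly measured. It was -0.47 (SE 4.67) for MpLEA-like9 and -2.88 (SE 5.06) for MpLEA-like28, against 0.95 (SE 0.31) for MpLEA-like54. The LEA genes also varied most among the libraries labelled Mpmri-1. Few calls among them therefore do not show equal effects in the 2 lines. WRKY genes counted 9 higher and 0 lower of 13 (69.2%), dirigent genes 27 and 5 of 50 (64%), phenylpropanoid genes 22 and 2 of 46 (52.2%), and P450 genes 43 and 8 of 102 (50%). MpPOD89 had a log2 fold change of 7.52 in Mpmri-1 and 0.90 in Mpfer-1, a difference of 6.62 (adjusted p = 9.28e-06, edgeR). MpCYP707A had 2.93 in Mpmri-1 and 0.07 in Mpfer-1 (difference 2.86, adjusted p = 0.000147). For MpMRI the difference was 1.46 (adjusted p = 3.6e-06) and for MpFER 0.87 (adjusted p = 0.000209), with MpFER lower in Mpfer-1 (log2 fold change -0.78).

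Tak-1 and Tak-2 are separate strains, and the mutant libraries were set against both at the genes that differ between them. On the autosomes 202 genes differed at least 8-fold between the wild types. In the libraries labelled Mpmri-1, although female, 132 of these genes had a level nearer to the male Tak-1 than to Tak-2 on the log2(CPM + 1) scale. Of the 132, 84 lay beyond the level of Tak-1 as seen from Tak-2. Of the genes higher in Tak-1, 91 of 142 were nearer to Tak-1, and of those higher in Tak-2, 41 of 60. Mpfer-1 was nearer to Tak-1 in 138 of the 202. The Tak-2 libraries entered both the choice of these genes and their comparison.

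Along the chromosomes, the genes nearer to Tak-1 lay partly in runs, which were described without a test. On chromosome 7 the 16 such genes fell into 3 runs, with 5 nearer to Tak-1 (Mp7g01250 to Mp7g03020), 7 nearer to Tak-2 (Mp7g06800 to Mp7g11270) and 4 nearer to Tak-1 (Mp7g16600 to Mp7g19390). MpMRI, at Mp7g17560, lies within the span of the last run, and Mp7g02900 within that of the first. The longest run held 12 genes nearer to Tak-1, from Mp3g12700 to Mp3g20630, on chromosome 3, where 33 of 42 such genes were nearer to Tak-1. The other 7 chromosomes broke into 6 to 17 runs. Over all autosomes, 120 of 194 neighbouring pairs of such genes were nearer to the same wild type. As 132 of the 202 genes were nearer to Tak-1, many like pairs follow from that share alone, and the number so expected was not counted. Some pairs are also close neighbours that changed together, such as Mp7g03010 and Mp7g03020 in the run of higher genes from Mp7g02950 to Mp7g03030.

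Single genes show how the 4 groups stood to each other. MpTPS6, absent from the Tak-2 counts, had 119 ± 35.8 CPM in libraries labelled Mpmri-1 (SD, n = 3), while Tak-1 had a mean of 2.67 CPM and Mpfer-1 0.384 CPM. MpCYP704-like8 had 0.272 CPM in libraries labelled Mpmri-1 and 74.2 CPM in Tak-2 on average, with 11.3 CPM in Mpfer-1 and 0.696 CPM in Tak-1. Of 23 genes with no count in Tak-2 and at least 1 CPM in each library labelled Mpmri-1, 5 had at least 1 CPM in each Tak-1 library and 7 had no count in Tak-1. The part of strain background in the difference between Mpmri-1 and Tak-2 was not tested.

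**Figure D5:**
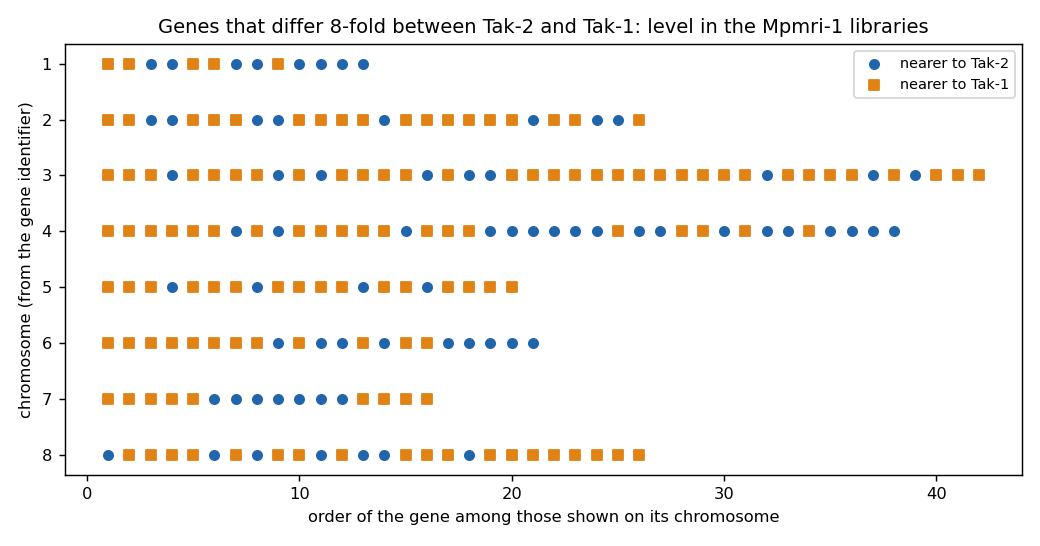
The 202 autosomal genes that differ at least 8-fold between Tak-2 and Tak-1, in the order of their identifiers on each of 8 chromosomes, marked by which wild type their level in libraries labelled Mpmri-1 was nearer to. Squares (nearer to Tak-1) make up 132 of the 202, and on chromosome 7 they form a block at each end.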

How the data were processed

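RNA-seq of 12 libraries was analysed, 3 a group. Per the labels' protocols, external spike-in RNA went into libraries made with a stranded mRNA kit; the table holds 0 spike-in rows. Per the submitters' processing notes, fastp, FastQC and DESeq2 were used. No source used here gives the aligner, the quantifier or the genome build. The deposited values are estimated counts per transcript model, not normalized, of which 65.5% are whole (tolerance 1e-09). The 23399 models were summed to 18336 genes by removing the final number, and the expected counts were rounded to whole numbers. Symbols came from a RefSeq table of assembly MpTak2_v7.1 by locus number, which matched 17416 genes and gave 3095 a symbol. That assembly need not be the one used for counting, and no coordinates are printed.

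Genes were filtered with filterByExpr, scaled with TMM and tested in edgeR 4.0.16 (R 4.3.3) with quasi-likelihood F tests over all 12 libraries by group (8 residual degrees of freedom), with Benjamini-Hochberg adjustment. SE is the absolute log2 fold change over the square root of F. Scripts were tested on simulated data. RLE scaling, totals, no filter, DESeq2 1.42.0, limma 3.58.1 voom, female libraries alone, a replicate block and leaving out each female library were tried. Total counts per library bound the precision, and counting intervals cover counting error only. Reads without molecular identifiers are not independent molecules.

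The comparison, the 39 gene lists and the rules were chosen with earlier results of these data known, and the lists were rewritten from the symbols of the RefSeq table after it was at hand. Named genes were MpMRI, MpFER, the 6 largest called rises (Tak-2 mean of at least 5 CPM) and falls (at least 1 CPM) without overlap, the same among genes with a symbol, the 5 highest in Tak-2, the 5 most variable, all tested members of the abscisic acid, cell wall sensing and rhizoid lists, and up to 2 called rises and 2 falls of each other list at 5 CPM or more. Not each of these 176 genes is printed.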

Additional observations from a re-analysis of the deposited data

Results flagged for a closer look

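The effect of Mpmri-1 over Tak-2 differed from that of Mpfer-1 over Tak-1 in 5239 genes, by the interaction term of the edgeR fit over 12 libraries (37.3% of the genes tested). Of 106 genes named above by the rule, leaving aside MpMAX2, MpSMXL and MpRKD, 51 had such a difference. MpRKD also had one, of -0.60 (adjusted p = 0.00364, edgeR), while MpMAX2 and MpSMXL did not (adjusted p = 0.165 and 0.428, edgeR). Replicates number 3 a group, which is too few for a search for single outlying samples. Sex, strain and line cannot be told apart in any of these differences.

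MpMRI differed by 1.46 on the log2 scale and MpFERONIA/MpTHESEUS by 0.87. The difference was 17.69 for MpTPS6, which had 0 counts in Tak-2, so its size depends on the prior count of the fit and is no measured fold. It was -12.20 for MpCYP704-like8, which had 20 counts over the libraries labelled Mpmri-1.

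Differences above 0, where the effect of Mpmri-1 lies above that of Mpfer-1, were 3.15 for MpLOX1, 1.83 for MpGST16, 0.84 for MpGT37.4, 3.55 for MpCYP829-like7, 0.77 for MpRALF2, 4.23 for MpGH19.3, 2.86 for MpCYP707A, 0.80 for Mp3g03990 and 3.01 for MpFTPSL8. Others above 0 were 2.13 for MpOMT14, 2.02 for MpOMT15, 1.0 for Mp4g06050, 3.72 for MpNBS-LRR11, 1.04 for Mp4g10850, 0.35 for MpSNRK2B, 2.26 for MpGH19.13, 5.69 for Mp5g04600 and 5.37 for MpWRKY3. Others above 0 were 4.24 for MpPOD88, 6.62 for MpPOD89, 5.44 for MpPPO52, 1.62 for MpRLK-Pelle_L-LEC26, 1.52 for MpSAUR3, 0.95 for MpLEA-like54, 3.79 for Mp7g02900, 0.49 for MpRALF1 and 2.32 for MpGST9. Others above 0 were 1.58 for MpPAL3, 2.84 for MpAAA, 3.08 for Mp8g08950, 3.66 for Mp8g08990, 0.83 for MpNIP, 0.92 for Mp8g15740 and 0.43 for MpPYL1.

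Differences below 0 were -1.95 for MpCYP716, -0.83 for MpCE8.3, -0.97 for MpABI5B, -3.85 for MpLOX3, -2.26 for Mp4g02020, -1.06 for MpExpansin32, -4.32 for Mp4g19940 and -1.66 for MpExpansin34. Others below 0 were -0.96 for MpPPO8, -0.81 for MpABA4, -1.64 for MpPIN3, -0.63 for MpCYP707D1 and -3.01 for Mp8g00430. Those of MpFERONIA/MpTHESEUS, MpSNRK2B, MpRALF2, Mp4g10850, MpABA4 and MpCYP707D1 concern genes not called in the libraries labelled Mpmri-1 against Tak-2.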

How the results depend on the processing

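Leaving out 1 of the 6 female libraries at a time gave 4186 to 4848 genes higher and 3952 to 4625 lower, and a median log2 fold change of the LEA genes of 4.67 to 5.66. The log2 fold change of MpMRI stayed between 1.33 and 1.45 in these fits. Under limma voom the LEA median was 4.36, against 5.17, and the cause was not tested. DESeq2 called 4683 genes higher and 4434 lower. With the female libraries alone, 4076 genes were higher and 3816 lower of 13467 tested, fewer than in any of the fits above. The main fit shares its estimate of spread over all 12 libraries, and the libraries labelled Mpmri-1 had the largest spread. With totals in place of TMM, 42.2% of the calls were higher, against 51.5%, and the log2 fold change of MpFER was -0.052 and did not pass the test. Of 174 named genes, 166 kept direction and side of the threshold with totals and 168 with limma voom, and none of the 174 changed direction past the threshold in any setting tried. List counts were checked under every setting after the data were seen. Counts of members higher of the LEA, pathogenesis-related, dirigent, phenylpropanoid, P450, WRKY and abscisic acid groups, and of members lower of the peroxidase, polyphenol oxidase, expansin, aquaporin and esterase and lyase groups, stayed within 1.5 times. Counts in the other direction did not in the phenylpropanoid group (3 lower without Tak-2 B or C, against 5) and the pathogenesis-related group (2 lower with totals, no filter or without Tak-2 B, against 1). The labels do not say that a replicate letter marks a shared origin. Deviations of same-lettered libraries correlated by 0.0925, 0.0781 and 0.206 for A, B and C. Replicates B and C of Mpmri-1 were closest to their own letter in Tak-2. Replicate A of Mpmri-1 and replicate B of Tak-2 were closest to each other (0.122), so the letters were not taken to pair the samples. With the letters as a replicate block, 4557 genes were higher and 4278 lower. Depth limits the genes with 0 to 3 counts in Tak-2, whose folds are bounds or wide intervals.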
